A study of Homo sapiens with 6 samples.

Results

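SYT1, RPH3A and SNAP25 encode proteins of the machinery that releases synaptic vesicles, and their NRF2 peaks were examined in HMC3 human microglial cells. The members were 3 of the 19974 protein-coding genes of RefSeq (GRCh38.p14), and their peaks were all those whose summit lay inside the gene or within 50 kb of either end. The genes were chosen by the deposited peak values, because strong peaks had been seen in them with CDDO-Im, so every value that sets CDDO-Im against vehicle below is a description and carries no test. In all, 13 peaks met the rule, 4 in CDDO-Im 1, 7 in CDDO-Im 2, 2 in Vehicle 1 and 0 in Vehicle 2, against 3882, 12244, 4098 and 7308 peaks listed on chromosomes 1 to 22 and X in the same libraries. Many of those peaks crowd into a few peak-dense megabases (defined below), where no member lies. Outside them the same libraries listed 3249, 4795, 1216 and 1276 peaks.

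The study mapped NRF2 on chromatin by ChIP-seq, in which DNA bound by a protein is pulled down with an antibody and sequenced. Chromatin came from the established HMC3 line after CDDO-Im (30 nM, 4 h; 2 libraries) or vehicle (2 libraries), with an anti-NRF2 antibody (D1Z9C). The groups rest on the sample titles, because the treatment text is the same for every sample, and the 2 input samples have no file here. HMC3 is 1 cell line, peak lists hold no expression values, so its microglial markers could not be checked, and nothing states that replicates came from separate cultures.

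NRF2 is a transcription factor that is kept low by KEAP1-driven degradation. CDDO-Im, a synthetic triterpenoid, reacts with KEAP1 and lets NRF2 build up, and NRF2 then binds antioxidant response elements together with small MAF proteins. Synaptotagmin 1 (SYT1) is a calcium sensor of synaptic vesicles that triggers their fusion. Rabphilin 3A (RPH3A) is an effector of the vesicle GTPase RAB3A and also binds SNAP25. SNAP25 is a SNARE protein of the plasma membrane and forms the core fusion complex with syntaxin 1 and synaptobrevin. All these proteins are best known from neurons and endocrine cells.

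The 13 peaks formed 8 regions when overlapping peaks were joined, and all 8 lay inside the genes, none in the 50 kb on either side. A region found in both CDDO-Im lists is called doubly listed, and it is called gained where the vehicle lists both lack it. Of the 8 regions 3 were gained, 1 in each of SYT1, RPH3A and SNAP25. A further region of RPH3A was doubly listed and also found in Vehicle 1. Another 3 were listed in CDDO-Im 2 alone, and 1 in Vehicle 1 alone. Without CDDO-Im 1, where CDDO-Im 2 alone stands for the group, 6 regions would count as gained and 7 as listed with CDDO-Im. Over all protein-coding genes, 7.56% had a gained region in the gene or within 50 kb (3.11% inside the gene), and 11.6% had a doubly listed one. A peak of any library lay there in 31.5% of genes. No member had a region of both vehicle lists, which 1.81% of all genes had, or of both vehicle lists alone, which 0.0451% had. Because the members were chosen for such regions, their 3 of 3 is set beside these shares as a description only. The share with a gained region was higher among longer genes, at 5.76% among genes under 100 kb, 13.3% among genes of 100 to 300 kb and 27.5% among genes of 300 kb or longer. SYT1 (588 kb) and RPH3A (324 kb) belong to the last class, and SNAP25 (88.6 kb) to the first.

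**Figure D1:**
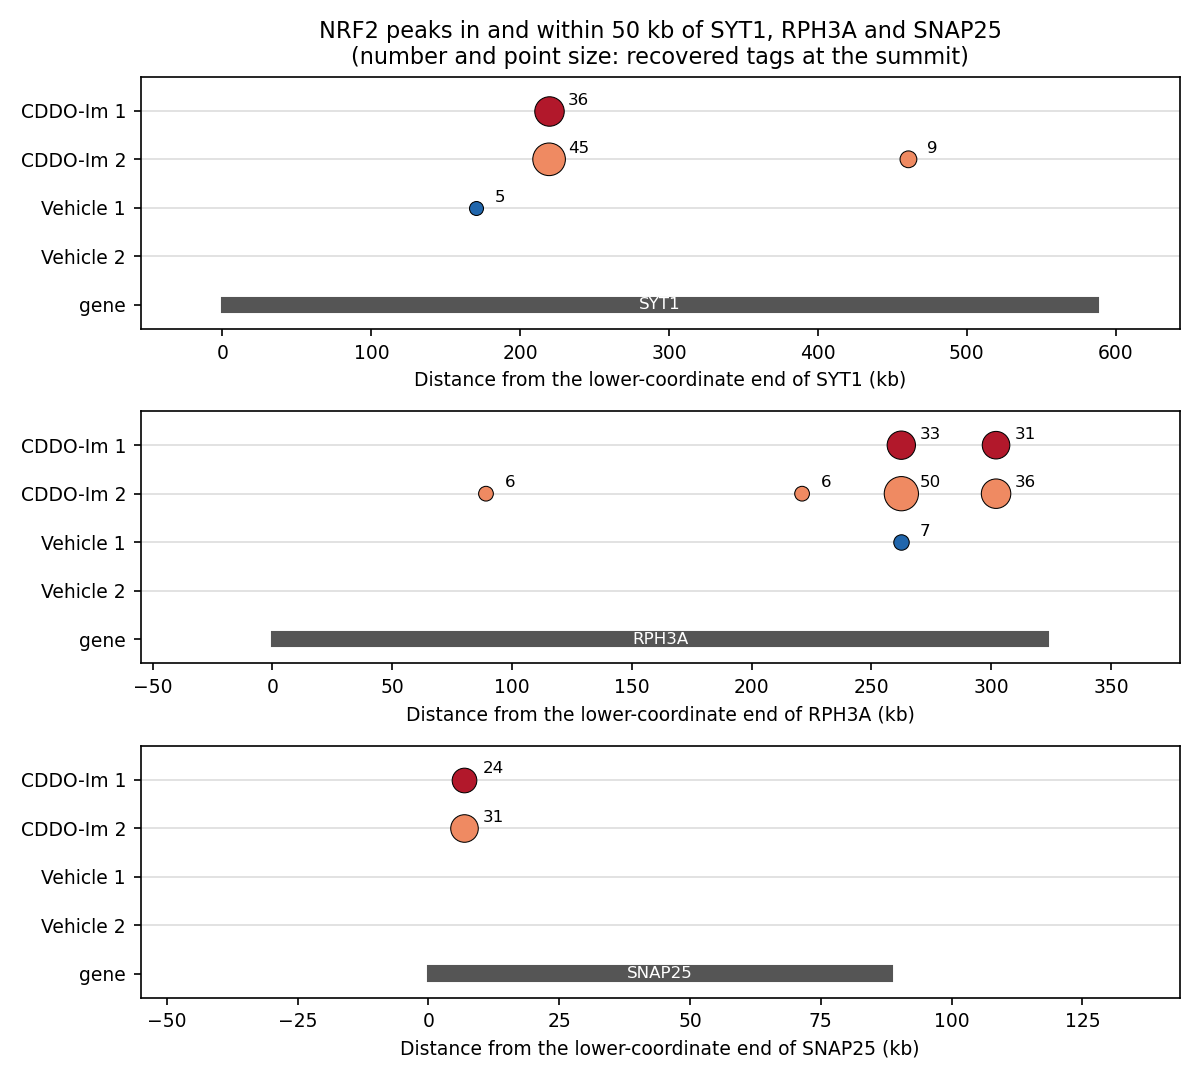
Position of every listed peak along SYT1, RPH3A and SNAP25. The x axis is the distance in kb from the lower-coordinate end of each gene, each row is a library, the bar is the gene, and point size and number give the recovered tags at the summit. The peaks shared by the CDDO-Im libraries stand above each other in all 3 genes, and the Vehicle 2 row is empty.

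Peak heights are given below as tags, the number of sequenced fragments piled up at the summit, which were recovered from each peak's deposited fold enrichment and p-value. The genome-wide background, used as the measure of depth, was 0.332 and 0.367 tags in CDDO-Im 1 and 2, against 0.316 and 0.315 tags in Vehicle 1 and 2. Tags divided by it are called tags over background. The median listed peak outside peak-dense megabases (those with more than 20 regions) had 10 and 11 tags in the CDDO-Im libraries, against 6 and 7 in the vehicle libraries. At the genome-wide background each library listed peaks from 4 tags upward. A peak missing from a list thus gives no value and is not evidence that NRF2 was absent. None of the megabases that hold the members and their 50 kb flanks was peak-dense.

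The strongest region of SYT1 (gene ID 6857, chr12:78863982-79452008) lay deep inside the gene at chr12:79083119-79083568, 219 kb from its nearer end. The summit held 36 tags for CDDO-Im 1 (exact 95% Poisson interval 25.2 to 49.8) and 45 tags for CDDO-Im 2 (32.8 to 60.2), and no peak was listed there in Vehicle 1 or Vehicle 2. Both CDDO-Im libraries were therefore high and close to each other. Over background the group mean was 115.5 ± 9.85 (SD, n = 2). The authors' fold enrichment was 27.8 with a −log10 q of 55.6 in CDDO-Im 1, and 32.5 with a −log10 q of 70.4 in CDDO-Im 2. Those folds ranked 80 of 3249 and 162 of 4795 peaks outside dense megabases. The summit also lies within LOC105369863, a long non-coding RNA gene that overlaps SYT1, and the nearest other protein-coding gene, PAWR, was 501 kb away. The intervals cover counting error only, since PCR copies are not independent molecules.

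SYT1 held weaker peaks elsewhere, each in a single library. The peak at chr12:79324611-79324899 had 9 tags in CDDO-Im 2 (4.12 to 17.1), with a fold enrichment of 7.07. The peak at chr12:79034233-79034433 had 5 tags in Vehicle 1 (1.62 to 11.7), with a fold enrichment of 4.36. Both stood below the 36 and 45 tags of the strongest region. The Vehicle 1 peak was close to the listing limit of 4 tags, while the CDDO-Im 2 peak, with a −log10 q of 6.92, was near the median of 11 tags in its list.

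RPH3A (gene ID 22895, chr12:112575236-112898881) was the member with most peaks, 7 in 4 regions, and held 2 strong regions whose summits were 39.5 kb apart. Over all protein-coding genes, 1.1% had 2 or more doubly listed regions in the gene or within 50 kb. The first of the strong pair, at chr12:112837491-112837898, held 33 tags for CDDO-Im 1 (22.7 to 46.3) and 50 for CDDO-Im 2 (37.1 to 65.9), against 7 in Vehicle 1 (2.81 to 14.4), and Vehicle 2 listed no peak there. Both CDDO-Im libraries were above the only vehicle library with a value. Over background the CDDO-Im mean was 117.8 ± 25.9 (SD, n = 2) and Vehicle 1 stood at 22.2, a ratio of 5.31, which was 4.49 for CDDO-Im 1 and 6.13 for CDDO-Im 2. The Vehicle 1 summit lay 83 and 101 bp from the CDDO-Im 1 and CDDO-Im 2 summits. Among the 142 regions outside dense megabases that were doubly listed and also found in Vehicle 1 alone, this ratio had a median of 2.26 (quartiles 1.72 and 3.12), and 4 regions, that of RPH3A included, reached 5.31.

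The second strong region of RPH3A, at chr12:112877003-112877406, held 31 tags for CDDO-Im 1 (21.1 to 44.0) and 36 for CDDO-Im 2 (25.2 to 49.8), and was missing from both vehicle lists. Over background the mean was 95.7 ± 3.19 (SD, n = 2), the smallest SD of the 4 doubly listed regions. The authors' fold enrichment was 24.0 in CDDO-Im 1 and 23.4 in CDDO-Im 2. It lay 21.7 kb from the nearer end of RPH3A and 29.7 kb from OAS1, the next gene, which encodes an interferon-induced oligoadenylate synthetase. It thus lies within 50 kb of both genes, and peak lists do not tell which gene, if any, a site acts on. The first strong region was 69.3 kb from OAS1.

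The remaining peaks of RPH3A were both in CDDO-Im 2 alone, with 6 tags each (2.2 to 13.1). The one at chr12:112796085-112796392 was the closest to a listed transcription start among the peaks of SYT1 and RPH3A, 4.53 kb downstream of an inner start of RPH3A. The other, at chr12:112664272-112664448, was 89.1 kb from the first start. Both had a fold enrichment of 5.12 and so stood well below the strong pair in the same library.

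SNAP25 (gene ID 6616, chr20:10218830-10307418) had a single region, at chr20:10225489-10225829, and it was a gained one. It held 24 tags for CDDO-Im 1 (15.4 to 35.7) and 31 for CDDO-Im 2 (21.1 to 44.0), with a mean over background of 78.4 ± 8.49 (SD, n = 2). Its summit lay 6.84 kb inside the lower-coordinate end of the gene, the closest to a gene end of the 8 regions. The local background that the peak caller used was raised here, at 1.73 times the genome-wide value in CDDO-Im 1 and 2.76 times in CDDO-Im 2, where the median peak outside dense megabases had 1.16 and 1.22 times. At the strongest SYT1 region these were 1.0 and 1.13 times. The authors' fold enrichment, which divides by that local background, was 15.9 in both libraries, so SNAP25 stood further below SYT1 on that scale than in tags. What raised the local background was not tested.

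**Figure D2:**
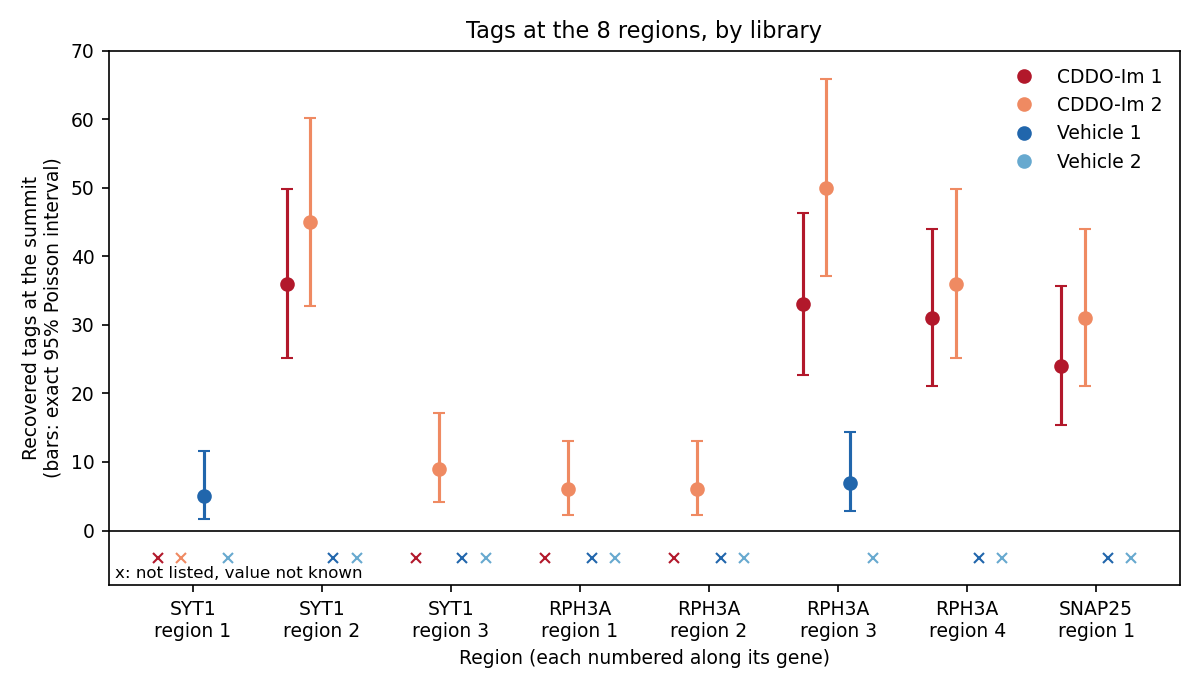
Tags at the summit for each of the 8 regions. Points are single libraries, bars are exact 95% Poisson intervals (counting error only), and crosses under the zero line mark libraries that list no peak, whose value is not known. The 4 doubly listed regions held 24 to 50 tags with CDDO-Im, while the vehicle peaks held 5 and 7 tags.

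The shapes of the 4 doubly listed regions were set beside those of all such regions. Their CDDO-Im summits lay 12 bp apart in SYT1, 18 and 13 bp apart in the 2 regions of RPH3A, and 7 bp apart in SNAP25. The median over all 2116 doubly listed regions outside dense megabases was 18 bp (quartiles 8 and 33.2). Widths were 450 bp in SYT1, 408 and 404 bp in RPH3A and 341 bp in SNAP25, where the median over the same regions was 345 bp and the upper quartile 388 bp, so SYT1 and both RPH3A regions were wide and SNAP25 was near the middle. CDDO-Im 2 over CDDO-Im 1, in tags over background, was 1.13 for SYT1, 1.37 and 1.05 for RPH3A and 1.17 for SNAP25, against a median of 1.3 (quartiles 1.01 and 1.64). With the background scaled by the shortest peak width it was 0.97 for SYT1 and 0.90 for the second RPH3A region, so which library was higher there depends on the measure of depth.

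By the lower of the CDDO-Im fold enrichments, the SYT1 region ranked 72 of the 2116, the RPH3A regions 114 and 133, and the SNAP25 region 341. Median tags of the 2116 regions were 13 for CDDO-Im 1 and 19 for CDDO-Im 2. By the same fold, among the 1428 of them that were gained, SYT1 ranked 1, the second strong RPH3A region 6 and SNAP25 62. By tags, 4 of the gained regions had more than the SYT1 region for CDDO-Im 1, 24 for CDDO-Im 2 and 2 for both. The first RPH3A region had more tags than SYT1 for CDDO-Im 2 and fewer for CDDO-Im 1. The Poisson intervals of SYT1 and both RPH3A regions overlap in each CDDO-Im library, and so do those of SYT1 and SNAP25, and no order of tags is drawn between them.

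**Figure D3:**
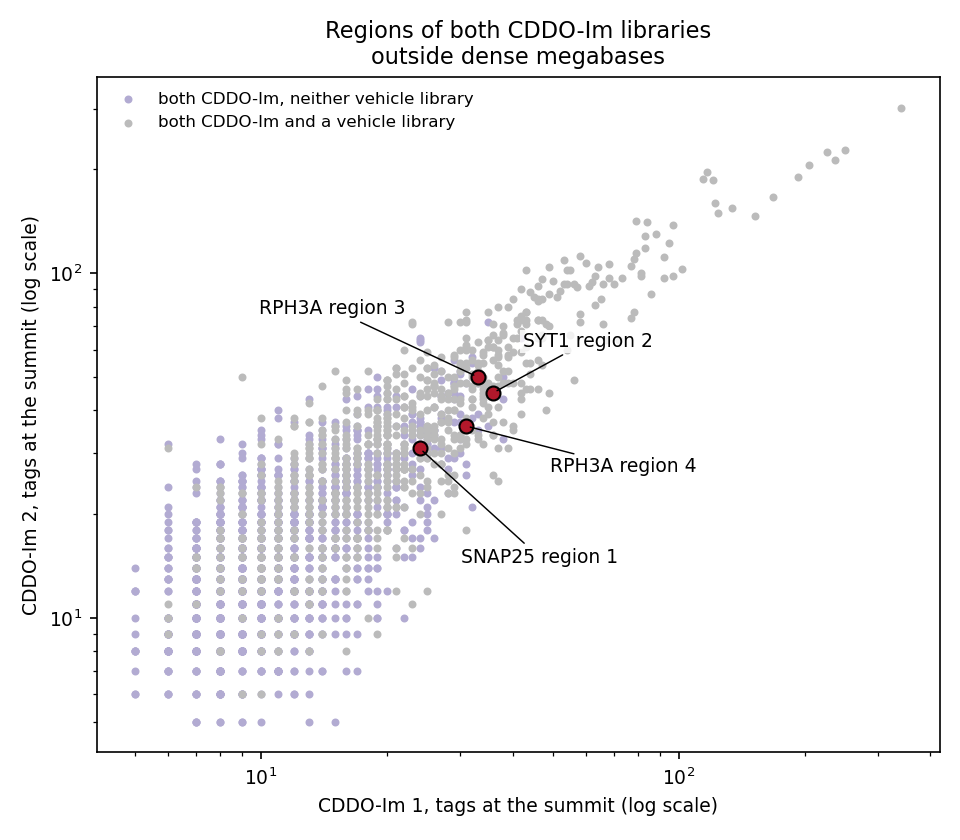
Tags in CDDO-Im 1 (x axis) and CDDO-Im 2 (y axis), both on log scales, for the 2116 doubly listed regions outside dense megabases. Purple points are gained regions, grey points regions that a vehicle library also listed, and the red points are the 4 member regions, which lie above the medians of 13 and 19 tags in both libraries.

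How far vehicle could have gone unlisted at these sites was set by the listing level. With a local background raised as much as the higher CDDO-Im library showed, the lowest p-value that the vehicle lists contain would be reached at 4 tags in each vehicle library for SYT1, at 5 for the second strong RPH3A region and at 6 for SNAP25. The lower CDDO-Im value over background was 8.56 and 8.54 times that level of Vehicle 1 and 2 at SYT1, 5.9 and 5.88 times at the second RPH3A region, and 3.81 and 3.79 times at SNAP25. At the first RPH3A region Vehicle 2 would have been listed from 5 tags, and the lower CDDO-Im value was 6.26 times that level. A site can also go unlisted for being too narrow, so these are not bounds on a fold change.

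The promoter windows used for SYT1 and RPH3A held none of these peaks. They are shown because every region lay away from them. No genome sequence was used here, so the sequences under the peaks are not printed. The set of promoter windows used, from RefSeq (GRCh38.p14), holds 1 start for SYT1 and 3 for RPH3A. Of the RPH3A windows 2 overlap each other, so 1 of that pair is left out. The lower-coordinate end of SYT1, chr12:78863982, lies before the SYT1 start used, chr12:78864774, so the set may not hold every start. Each window is the plus strand, 5′ to 3′, with 250 bases before the start in lower case and 50 bases from the start on in capitals, for SYT1 at chr12:78864524-78864823, for the first RPH3A start at chr12:112574986-112575285 and for its inner start at chr12:112791498-112791797.
SYT1: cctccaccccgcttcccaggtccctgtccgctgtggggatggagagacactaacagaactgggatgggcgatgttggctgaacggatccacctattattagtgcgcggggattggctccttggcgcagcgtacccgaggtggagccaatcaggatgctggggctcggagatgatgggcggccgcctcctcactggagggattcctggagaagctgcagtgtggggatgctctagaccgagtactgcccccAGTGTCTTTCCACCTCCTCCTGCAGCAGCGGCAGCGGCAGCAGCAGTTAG
RPH3A, first start: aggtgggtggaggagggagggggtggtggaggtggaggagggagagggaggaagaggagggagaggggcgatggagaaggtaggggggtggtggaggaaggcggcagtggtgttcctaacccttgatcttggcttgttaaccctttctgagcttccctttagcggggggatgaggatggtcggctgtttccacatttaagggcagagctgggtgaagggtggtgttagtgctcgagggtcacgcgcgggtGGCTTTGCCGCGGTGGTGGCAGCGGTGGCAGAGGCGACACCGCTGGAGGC
RPH3A, inner start: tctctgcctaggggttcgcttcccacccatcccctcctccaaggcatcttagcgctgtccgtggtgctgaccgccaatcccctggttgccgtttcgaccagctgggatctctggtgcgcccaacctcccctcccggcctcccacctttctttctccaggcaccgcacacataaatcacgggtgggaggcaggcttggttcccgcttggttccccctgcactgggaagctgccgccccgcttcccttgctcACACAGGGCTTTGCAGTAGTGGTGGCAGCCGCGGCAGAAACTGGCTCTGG

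The nearest summit was 170 kb from the SYT1 start used (the Vehicle 1 peak). For RPH3A it was 89.1 kb from the first start and 4.53 kb from the inner one, both from peaks of CDDO-Im 2 alone. SNAP25 is not in the set of windows used, so it enters neither these distances nor the search that follows. The core of the antioxidant response element, TGACNNNGC, was searched on both strands. It was in 0 of these 3 windows, also not in the overlapping one, and in 13.3% of the 35116 RefSeq promoter windows of the same length. That these letters are not in the windows says nothing about NRF2 elsewhere in the genes.

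Beyond the members' windows, the nearest listed peaks are given by distance, without a genome-wide spacing to set them against. The nearest peaks outside the SYT1 window were 104 kb below the gene, in CDDO-Im 2 with 19 tags, and 77.4 kb above it, in Vehicle 1 with 6 tags. For RPH3A the nearest were 330 kb below and 346 kb above the gene, and for SNAP25 535 kb below and 204 kb above. Among single libraries, a peak within 50 kb of or inside the gene was listed for 16.4% of protein-coding genes in CDDO-Im 1 and 23% in CDDO-Im 2, against 6.66% in Vehicle 1 and 7.53% in Vehicle 2.

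The wider vesicle machinery was described with 5 lists of 85 genes: synaptotagmins and the related DOC2 proteins, RAB3 proteins and effectors, SNAREs, SNARE regulators and vesicle membrane proteins. With the 3 members in, 8 of 85 genes (9.41%, exact 95% binomial interval 4.15% to 17.7%) had a gained region, near the 7.56% of all genes. Without them it was 5 of 82 (6.1%, 2.01% to 13.7%). The count of 8 became 20 without CDDO-Im 1 and 14 without CDDO-Im 2, since the remaining list then sets the class by itself. It was 5 where −log10 q had to reach 5 and 8 where it had to reach 10. A stricter threshold also drops vehicle peaks, so those 8 are not the same genes as the main 8. The 7.56% belongs to the main setting, and the share of all genes at these other settings is not given. A listed peak, with or without a vehicle peak, lay at 16.4% of all genes in CDDO-Im 1 and 23% in CDDO-Im 2. Doubly listed regions lay at 12 of 85 genes (14.1%), near the 11.6% of all genes, and regions of all 4 libraries at 3 of 85 (3.53%), where 1.78% of all genes had one. The count without the members is thus close to that over all genes, and the lists hold few genes.

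Synaptotagmins and DOC2 proteins had a gained region at 3 of 18 genes (16.7%, 3.58% to 41.4%), beside 7.56% of all genes. The family shares C2 domains, but only some members, SYT1 among them, sense calcium. Beside SYT1 the genes were SYT15, with 17 tags for CDDO-Im 1 and 22 for CDDO-Im 2 in a region 2.42 kb inside an end of the gene, and SYT17, both of them members not known as calcium sensors. SYT17 had 18 and 15 tags in CDDO-Im 1 and 2 inside the gene and a second region 15.5 kb outside it with 15 and 12 tags, which lay nearer to CLEC19A. No vehicle library listed these 3 regions. Vehicle 1 listed another peak, with 7 tags, 23.2 kb outside SYT17 and inside CLEC19A. The counts of this list, of RAB3 proteins and effectors and of SNAREs each include a member chosen for having a gained region.

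RAB3 proteins and effectors had 3 of 17 (17.6%, 3.8% to 43.4%), beside 7.56% of all genes. Beside RPH3A these were RAB27B, a GTPase of secretory vesicles, with 7 and 10 tags in CDDO-Im 1 and 2, and RIMS2, an active zone scaffold, with 7 and 17 tags. All of these were weaker than the RPH3A pair in both libraries. Elsewhere inside RIMS2, CDDO-Im 2, Vehicle 1 and Vehicle 2 each listed a peak found in that library alone, with 6 tags. SYTL2, an effector of RAB27, had a region of all 4 libraries, with 29 and 30 tags in CDDO-Im 1 and 2 against 7 and 8 in Vehicle 1 and 2, but its summit lay inside CREBZF, 28.9 kb outside SYTL2.

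SNAREs had 2 of 13 (15.4%, 1.92% to 45.4%, beside 7.56% of all genes), SNAP25 and VAMP1. The region of VAMP1, a synaptobrevin, lay 31.5 kb outside the gene, nearer to CD27, and held 8 and 11 tags in CDDO-Im 1 and 2. SNARE regulators and vesicle membrane proteins had 0 of 18 (0% to 18.5%) and 0 of 19 (0% to 17.6%), and both intervals hold the 7.56%. Of these lists, SV2C, a vesicle glycoprotein, had the region with most tags, 18.8 kb outside the gene and listed in all 4 libraries, with 64 and 104 tags in CDDO-Im 1 and 2 against 16 and 25 in Vehicle 1 and 2. SYN2, a synapsin of the vesicle surface, had a region 2.4 kb outside the gene with 22 and 41 tags in CDDO-Im 1 and 2 against 12 in Vehicle 2, and none listed in Vehicle 1. STXBP5L, a syntaxin-binding protein, had a region of all 4 libraries with 15 and 22 tags in CDDO-Im 1 and 2 against 7 and 9 in Vehicle 1 and 2, whose summit lay inside POLQ.

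**Figure D4:**
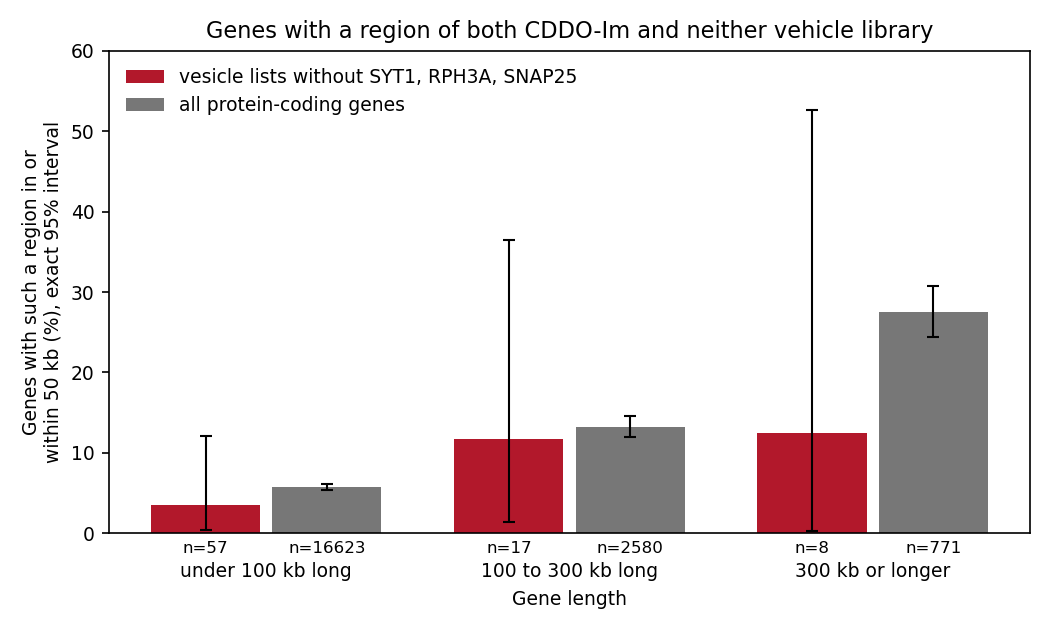
Share of genes, in percent on the y axis, with a gained region in the gene or within 50 kb, by gene length (x axis). Bars to the left are the vesicle lists without SYT1, RPH3A and SNAP25, bars to the right all protein-coding genes, whiskers are exact 95% binomial intervals and n is the number of genes. The shares over all genes were 5.76%, 13.3% and 27.5% from the shortest to the longest class. Those of the vesicle lists without the members were 3.51% of 57, 11.8% of 17 and 12.5% of 8 genes, with wide intervals. Taking out genes chosen for having a gained region lowers these shares. With the members in, not drawn here, they were 5.17% of 58, 11.8% of 17 and 30% of 10 genes, also with wide intervals.

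Regions most like those of the members were found by distance in log2 tags over background over the libraries that listed them. Only regions inside protein-coding genes, outside dense megabases and listed by the same libraries were compared. For SYT1 and SNAP25 these were gained regions. A region that a vehicle library also listed, and so left out, held the same 24 and 31 tags as the SNAP25 region. Another held 36 and 47 tags, beside the 36 and 45 of SYT1. The SYT1 region was nearest to regions inside ANAPC5 (38 and 43 tags in CDDO-Im 1 and 2, distance 0.10), NPEPPS (33 and 48, distance 0.16) and NUP93 (31 and 48, distance 0.23), among 633 regions inside genes. SNAP25 was nearest to regions in SHROOM3 (25 and 30 tags, distance 0.08), RBKS (23 and 30, distance 0.08) and AHCYL1 (25 and 33, distance 0.11) among the same regions. The first strong RPH3A region, over 3 libraries and 55 regions, was nearest to those in DONSON (26 and 47 tags in CDDO-Im 1 and 2 against 8 in Vehicle 1, distance 0.40), CEP112 (31 and 62 against 9, distance 0.49) and TBC1D16 (31 and 77 against 7, distance 0.63). Likeness here is of tag numbers in 2 or 3 libraries.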

How the data were processed

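Per the submitters' processing notes, the tools were MACS2 2.2.7.1, BWA 0.7.17 and bcl2fastq 2.15.0, and the builds named are GRCm38 and hg38; coordinates are read here as hg38. How peaks were thresholded, which control was used and what was done with duplicates is not given in the sources. Each library has its own deposited list with a fold enrichment (ratio), −log10 p and −log10 q per peak and a score (10 times −log10 q, without decimals). The fold is the authors' value and serves here only to describe and rank peaks within a list.

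Tags at each summit were solved from 2 deposited values, the fold, (tags + 1)/(background + 1), and the p, a Poisson upper tail beyond the tag number. A whole number solved 100% of peaks in each library (tolerance 0.001 plus 0.0002 of the value), 97.7% to 99.4% with a single match. Among simulated peaks 2000 of 2000 were recovered, and classes of 1000 of 1000 simulated regions. The simulated peaks followed the same formulas and the simulated regions lay far apart. These runs therefore check the code and say nothing about the real lists. The lists hold no library totals, so the lowest recovered background stood for depth, and it varies with the unstated fragment length too.

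Overlapping peaks (1 bp or more) of chromosomes 1 to 22 and X formed regions. Megabases with more than 20 regions (77 in all) were called dense. A region belonged to a gene when the summit of its strongest peak lay inside or within 50 kb. Strand and exons are not in the RefSeq gene table, and regions are placed inside or outside genes only.

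The members, gene lists and rules were chosen with earlier results of these data known. Named were all member regions, list genes with a doubly listed region, and the 3 genes with the most similar region per member. Similar regions were sought only among those listed by the same libraries. No test was made: the genes were chosen for these values, and 2 libraries against 2 cannot give an exact permutation p under 0.333. Alternatives changed the q threshold, window, joining, depth measure and libraries. Work was done in Python 3.11.15 with numpy 2.4.6, pandas 2.3.3, scipy 1.17.1 and matplotlib 3.10.9.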

Additional observations from a re-analysis of the deposited data

How the results depend on the processing

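Of 59 recomputed counts and ratios over Vehicle 1, 50 stayed within 1.5 times the reported count or within the spread of the CDDO-Im libraries. Some of these could not move. Every member region lay inside its gene, so narrower windows left the member counts as they were. Leaving out a CDDO-Im library gives the RPH3A ratio of the other library, and these ratios set the spread. The ratio of CDDO-Im 2 to CDDO-Im 1 moved within counting error in 12 of 12 recomputations but passed below 1 in 3: SYT1 was 0.97 with the background scaled by the shortest peak width, and the second strong RPH3A region was 0.90 with that scaling and 0.97 by the authors' fold enrichment. Where −log10 q had to reach 10, CDDO-Im 2 listed 4 of its 7 member peaks and Vehicle 1 listed 0 of its 2, and where it had to reach 5 Vehicle 1 also listed 0. The 8 vesicle list genes with a gained region became 5 where −log10 q had to reach 5, and 5 without the members. The count was 8 where −log10 q had to reach 10, but not of the same genes. Some regions count as gained there because their vehicle peaks fall under the threshold. Leaving out a library gave 3 to 6 member regions of CDDO-Im and not vehicle (6 without CDDO-Im 1, where 1 list stands for the group). Member regions of CDDO-Im then numbered 4 to 7 (7 without CDDO-Im 1). Vesicle genes numbered 8 to 20 (20 without CDDO-Im 1 and 14 without CDDO-Im 2), and the RPH3A ratio over Vehicle 1 was 4.49 to 6.13. The share of all genes at the altered settings is not given, so the altered vesicle counts have no such share beside them. Where −log10 q had to reach 5, the RPH3A region also found in Vehicle 1 counted as gained, which made 4 in place of 3. The ratio at RPH3A was 5.93 from tags as recovered, 5.0 with the background scaled by the shortest peak width and 5.01 from the authors' fold enrichment. No paired analysis was possible because, of the member regions, the only one with values in both groups has none in Vehicle 2, so replicate number 2 gives no pair; nothing says that the numbers pair the libraries. Peaks of 5 to 7 tags lie near the listing limit of 4, which limits what they can show.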
